A study of Glycine max with 4 samples.

Results

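Wide stretches of GmWRI1 occupancy were examined in soybean embryos at the early maturation (em) stage. The regions were chosen by their width and by their presence in both replicates. Peaks of the 2 ChIP replicates that shared at least 1 bp were merged, and a merged region was kept when it held a peak of each replicate, measured at least 2000 bp from its first to its last base, and lay on chromosomes 1 to 20. The rule kept 525 regions out of 15102 shared regions on the chromosomes, and out of 26116 merged regions of either list over all sequences. The remaining 14577 shared regions were under 2000 bp and are called narrower regions below. Everything measured here comes from the same contrast of ChIP with input that set the peak borders, so all values are descriptions and no test was made.

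The samples were 2 ChIP and 2 input libraries from cultivar Williams 82, with embryos dissected from seeds of 6 to 7 mm and cross-linked with 1% formaldehyde. The antibody was raised against a GmWRI1 peptide and, per the study's methods, recognizes both soybean WRI1 proteins. Input was chromatin of the same stage kept aside without antibody, and the chromatin was sheared to fragments of 100 to 500 bp. The wild-type embryos carried no transgene or mutation in the labels, and no sample without GmWRI1 was analyzed here. The peak list of replicate 1 held 22982 peaks with 37 reads at the median summit, and that of replicate 2 held 20027 peaks with 26 reads.

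WRINKLED1 (WRI1) is a plant transcription factor of the AP2 family. In Arabidopsis seeds it promotes the genes that turn sugar into fatty acids, from plastid glycolysis to the fatty acid synthase, and these acids are stored as triacylglycerol. A transcription factor that recognizes a short DNA motif is usually seen in ChIP-Seq as a narrow peak, whose width depends on the fragment length. A wide region may hold several neighboring sites or signal that spreads along a gene.

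Wide regions were the tail of a continuous distribution of widths. They made up 3.48% of the shared regions, and their median width was 2407 bp against 543 bp for the narrower regions. Of the 525 regions, 302 were under 2500 bp, 115 were from 2500 to under 3000 bp, 84 were from 3000 to under 4000 bp, 17 were from 4000 to under 5000 bp and 7 were wider. The regions nearest to the threshold did not stand apart from each other. The narrowest members measured 2000 bp at an unnamed locus of chromosome 1, 2000 bp at Glyma.07G057600 and 2003 bp at Glyma.08G145300. Just outside were regions of 1999 bp on chromosome 4, 1998 bp at Glyma.03G153400 and 1998 bp on chromosome 19. Their fold enrichments ran from 6.68 in replicate 1 at the chromosome 1 locus to 32.8 in replicate 2 at Glyma.07G057600 inside, and from 3.99 in replicate 1 on chromosome 4 to 50.9 in replicate 2 at Glyma.03G153400 outside. No merged region of 2000 bp or more had peaks of 1 replicate only, and none lay off the chromosomes.

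**Figure D1:**
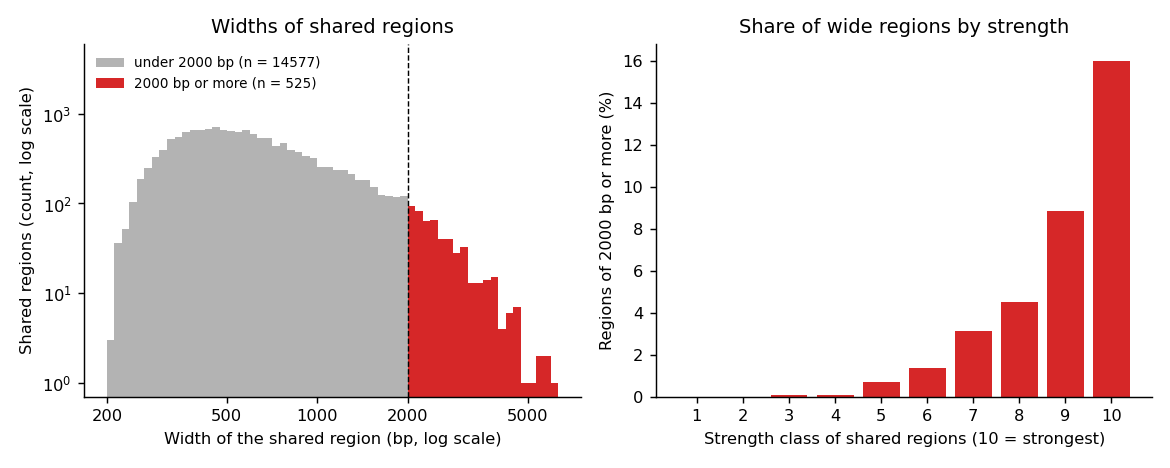
Left, number of shared regions by width (bp, both axes logarithmic), with the threshold of 2000 bp as a dashed line. Right, percentage of shared regions that reached 2000 bp in 10 equal classes of strength, which was 0% in the weakest class and 16.0% in the strongest.

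The width was mostly that of a peak called as wide in its own right, and less often that of a chain of shorter peaks. In 251 regions (47.8%) each replicate held a peak of at least 2000 bp. Such a peak was called only in replicate 1 in 152 regions and only in replicate 2 in 31, and in 91 regions (17.3%) neither replicate had one, so that the width came from overlapping shorter peaks. Each replicate contributed exactly 1 peak to 261 of the 525 regions. When weaker peaks were left out of both lists (a −log10 q of at least 10), this held for 365 of 479 wide regions. Replicate 1 had 1 peak where replicate 2 had several in 169 regions, the opposite held in 41, and both had several in 54. Replicate 2, whose summits held fewer reads, was the replicate with more peaks in most regions where the numbers were unequal. Peaks of both replicates covered a median of 87.9% of a wide region in common, against 73.8% in narrower regions.

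With the summits of both replicates pooled, most wide regions held more than 1 summit position. Summits of both replicates within 100 bp of each other were counted as 1 position. A position could come from 1 replicate only, and summits of the replicates that lay further apart counted separately. Both replicates had 2 or more peaks in only 54 of the 525 regions. By this count 197 regions had 1 position, 196 had 2, 95 had 3, 24 had 4, 11 had 5 and 2 had 6. At least 3 positions were found in 25.1% of wide regions and in 3.24% of narrower ones, and at least 2 in 62.5% and 27.7%. A wider region has more room for summits, so this difference goes with the rule itself. The strongest summit also sat less often in the middle of the region. In replicate 1 it fell in the central 20% of the width in 28.6% of wide and 49.7% of narrower regions, and in the first and last 20% in 9.33% and 9.14% of wide regions.

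In most wide regions the replicates placed their strongest summits close together. The median distance was 40 bp, equal to that of narrower regions, and 72.0% of wide regions had their strongest summits within 100 bp, beside 76.1% of all shared regions. A longer region also allowed larger disagreements. The strongest summits lay over 500 bp apart in 52 wide regions (9.90%) and 242 narrower regions (1.66%), and over 1000 bp apart in 30 and 13. The largest distance was 2482 bp.

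The widest region measured 5974 bp (chr3:38019415-38025388) at Glyma.03G165400, described as no pollen germination related 2. It was also an exception to the close summits. Replicate 1 had its summit 2057 bp from the start of the region with a fold enrichment of 13.8, whereas replicate 2 had it at 4029 bp with 14.8. Both replicates covered this locus with 1 peak each, of 5950 and 5761 bp. The next 2 regions lay at a pair of genes of the octicosapeptide/Phox/Bem1p family, whose shared domain mediates contacts between proteins. At Glyma.09G180100 the region measured 5804 bp (chr9:40519464-40525267) and at Glyma.07G097900 5775 bp (chr7:9198442-9204216). Glyma.09G180100 had fold enrichments of 49.3 in replicate 1 and 75.2 in replicate 2. Glyma.07G097900 had 48.0 and 74.4. At both genes each replicate had a dominant peak, of 4464 to 5715 bp. At Glyma.09G180100 weaker peaks followed it in replicate 2 only, with fold enrichments of 3.58 and 4.46. At Glyma.07G097900 a weaker peak preceded it in each replicate, with 5.65 in replicate 1 and 7.09 in replicate 2.

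A region of 5420 bp (chr7:15563412-15568831) lay at Glyma.07G131800, described as pol-like 5, a protein phosphatase in Arabidopsis. Its dominant summits were 16 bp apart and had fold enrichments of 43.4 and 73.1. An unnamed region of 5399 bp (chr18:43423520-43428918) had 1 peak in each replicate, with 43.3 and 80.0. At Glyma.03G197300, a P-loop nucleoside triphosphate hydrolase, the region was 5150 bp wide (chr3:40670324-40675473) but weaker, at 10.6 and 12.6. Glyma.02G244000 encodes a glutamine synthetase, the enzyme that fixes ammonium into glutamine, and its 5011 bp region (chr2:43201511-43206521) had 37.1 and 73.2. In replicate 1 this stretch was a single peak, and in replicate 2 it was 3 peaks, of which the outer ones had fold enrichments of 5.83 and 6.30.

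The other 3 of the 10 widest were of unequal strength. An unnamed region of 4711 bp (chr5:25032011-25036721) had 12.1 and 9.66, and here the replicates ranked its parts differently. Replicate 2 had 9.66 at 945 bp from the start and 7.09 at 3407 bp, close to the only summit of replicate 1 at 3427 bp. Glyma.06G119800, whose closest Arabidopsis gene AT1G76980 has no described function, had a region of 4703 bp (chr6:9750554-9755256) with 43.5 and 81.1. The latter was the highest fold enrichment of replicate 2 in any wide region. That summit held 388 reads, the highest count of the replicate 2 list. The local background there, 3.80 reads, was at the lowest level of that list. A region of 4647 bp (chr12:35412865-35417511) spanned positions linked to both Glyma.12G192500, a MAPKKK17 gene of the mitogen-activated protein kinase cascade, and Glyma.12G192600, a B-cell receptor-associated 31-like gene. Its summits lay 557 and 556 bp from the start of the region, with 46.4 and 63.5, so most of the region extended to 1 side of them.

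**Figure D2:**
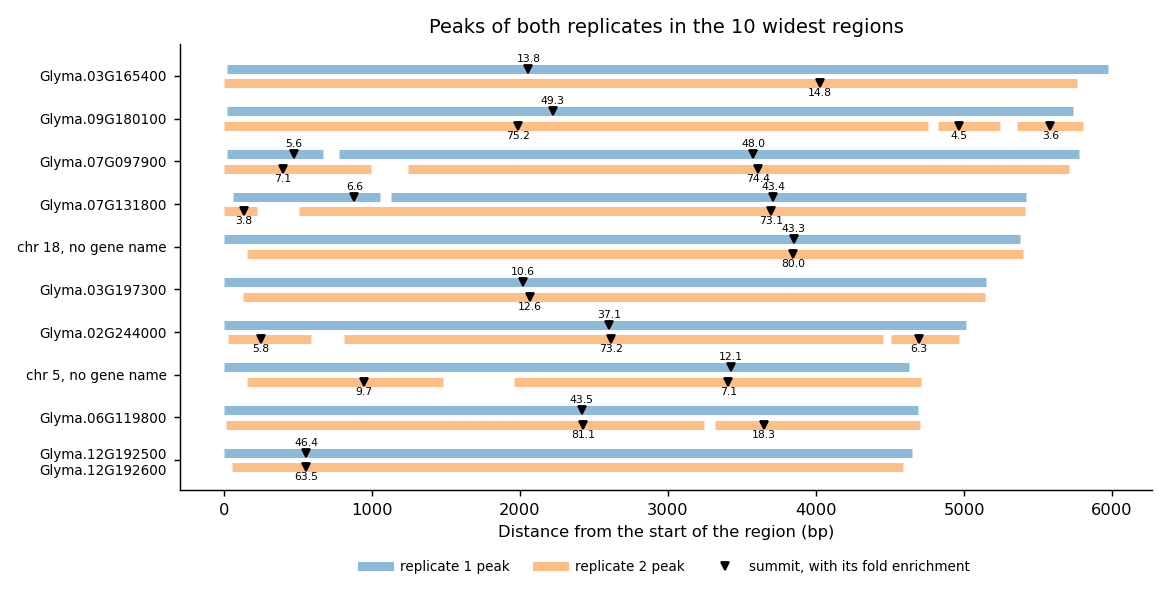
Peaks of replicate 1 (upper bars) and replicate 2 (lower bars) in the 10 widest regions, against the distance from the start of each region (bp). Triangles mark summits with their fold enrichments, which ran from 3.58 to 81.1. In 7 of the 10 regions every replicate had a peak of over 4000 bp, and in 7 the strongest summits of the replicates were within 50 bp.

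Wide regions were also strong. The strength of a region was the fold enrichment of its strongest peak in each replicate, averaged over both. Its median was 12.4 in wide and 4.94 in narrower regions, a ratio of 2.51. In replicate 1 the medians were 11.6 and 4.72, and in replicate 2 they were 13.3 and 5.21. The reads behind them gave the same picture, with medians of 108 and 44 reads at the summit in replicate 1 and of 72 and 29 in replicate 2. The local background did not differ to this extent, at 8.19 and 8.33 reads in replicate 1 and 4.38 and 4.44 in replicate 2. Of the wide regions, 165 (31.4%) had peaks among the strongest 5% of both lists, beside 5.96% of all shared regions, and 512 lay above the median strength of shared regions. Width and strength come from the same signal and are not independent measures. Over all shared regions their Spearman correlation was 0.48 (n = 15102 regions of the same libraries), and within the wide regions it was 0.33 (n = 525).

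Strength nevertheless varied widely among the members. The mean fold enrichment ran from 4.13 to 64.1, with quartiles of 7.91 and 22.1. Regions with fewer peaks were the stronger ones. The median strength was 15.1 in the 261 regions with 1 peak in each replicate and 7.66 in the 101 regions with 4 or more peaks. The replicates ranked the wide regions alike, with a Spearman correlation of 0.93 (n = 525), against 0.76 in narrower regions. The quartiles of strength lay closer together in narrower regions, at 3.98 and 7.16. Replicate 2 gave the higher fold enrichment in 401 wide regions (76.4%) and in 68.1% of narrower ones, and the median ratio of replicate 2 to replicate 1 was 1.18 and 1.13. At the top of the range the read counts bunched. The summit reads of both replicates were within 10% of their list's highest count in 23 wide (4.38%) and 10 narrower regions (0.0686%). That count was 420 reads in replicate 1 and 388 in replicate 2. At such counts fold enrichments still differed with the local background. In replicate 1, Glyma.01G048000 had 420 reads over a background of 7.76, a fold enrichment of 48.0. Glyma.02G107200 had 416 reads over 12.5, a fold enrichment of 30.8. The order of the strongest regions thus depends on background as well as on reads.

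**Figure D3:**
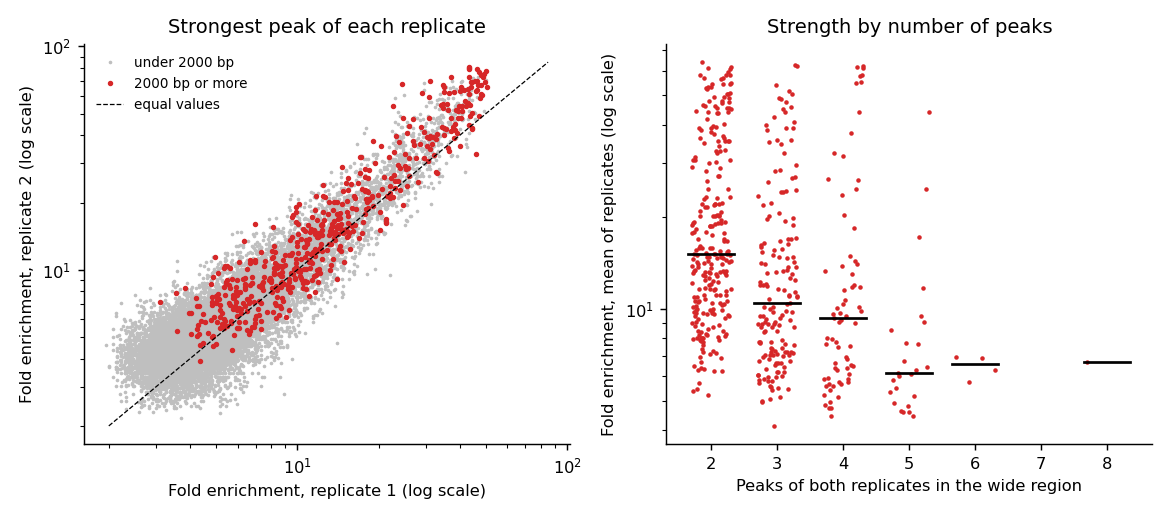
Left, fold enrichment of the strongest peak in replicate 1 and replicate 2 for each shared region (log scales), with wide regions in red. Right, mean fold enrichment of wide regions (log scale) by the number of peaks they held; each point is a region and the bars are medians, which fell from 15.1 with 2 peaks to 7.66 over all regions with 4 or more.

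The strongest wide region was not among the widest. Regions were put in order by the mean of their ranks by fold enrichment in each replicate, so that the higher values of replicate 2 did not weigh more than those of replicate 1. Glyma.07G140800, an adenine nucleotide alpha hydrolase-like gene, had a region of 2183 bp (chr7:16671134-16673316) with fold enrichments of 50.3 in replicate 1 and 77.9 in replicate 2 and the highest rank of all shared regions. By this order both octicosapeptide genes followed in the leading 4, together with Glyma.01G153300, a CYP707A1 gene whose enzyme breaks down abscisic acid, with 48.7 and 73.2 over 3990 bp. The other named regions of the leading 10 by mean rank were Glyma.06G298000 (QWRF3, 46.2 and 79.2 over 3801 bp), Glyma.16G006100 (a protein of unknown function, 49.6 and 69.5 over 3637 bp) and Glyma.02G235700 (WNK4, a protein kinase, 50.6 and 65.8 over 4065 bp). Unnamed regions of 3768 and 2144 bp on chromosome 19 and of 3201 bp on chromosome 20 completed the list, with fold enrichments of 45.7 to 47.3 in replicate 1 and 70.2 to 76.7 in replicate 2.

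The regions with the most peaks were of another kind, weak and unnamed. A region of 3319 bp on chromosome 20 (chr20:46077022-46080340) held 3 peaks of replicate 1 and 5 of replicate 2. Fold enrichments there lay between 3.31 and 5.85 in replicate 1 and between 3.38 and 7.51 in replicate 2, with 16 to 50 reads at the summits. The other 4 regions of this set each held 6 peaks, and lay on chromosomes 10, 2, 13 and 14 with widths of 3158, 2672, 2325 and 2287 bp. Their strongest peaks had fold enrichments of 4.98 to 6.61 in replicate 1 and 5.51 to 7.59 in replicate 2. In these 5 regions the summits of the replicates matched in part only, and 5 or 6 summit positions were counted in each.

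Wide regions occurred on every chromosome, from 14 on chromosome 14 to 39 on chromosome 2. As a share of the shared regions of the same chromosome this was 2.46% and 4.62%, the lowest and the highest share. Chromosome 13, with the most shared regions (1103), had 35 wide ones (3.17%). The distribution along the chromosomes followed that of all occupancy. Each chromosome was divided into 5 equal parts up to its last peak. The outer parts held 69.7% of wide regions (366 of 525) and 69.8% of narrower regions. The 95% exact binomial interval for wide regions, 65.6 to 73.6%, covers counting error only. It treats the regions as independent, which neighboring regions of the same libraries are not. The central of the 5 parts held 4.76% and 5.57%. The median distance from a wide region to the nearest other wide region was 382 kb. This spacing was not compared with that of an equal number of other regions. A wide neighbor within 10 kb was found for 4 of the 525 regions, which formed 2 pairs. In the closest of these pairs, on chromosome 1, a gap of 2666 bp separated a region of 2705 bp linked to Glyma.01G206200, Glyma.01G206300 and Glyma.01G206400 from one of 2405 bp linked to Glyma.01G206400 and Glyma.01G206500.

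**Figure D4:**
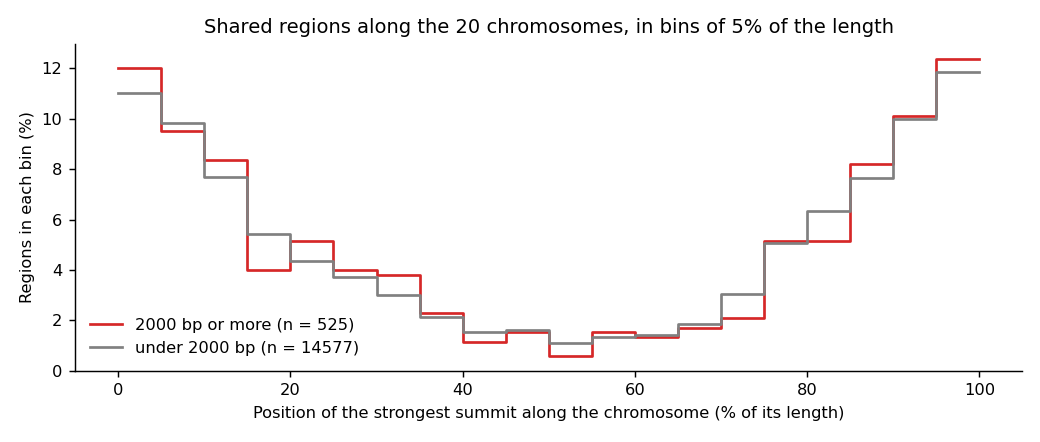
Percentage of wide (red) and narrower (gray) shared regions in bins of 5% of the chromosome length, by the position of the strongest summit. Both profiles were highest at the ends, with 12% and 12.4% of wide regions in the outermost bins, and lowest in the middle.

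Gene names were available for 265 wide regions, through positions that the study lists for bound sites and regions. These listings were used in part and favor strong sites. Named wide regions had a median strength of 18.6, against 8.84 for the 260 unnamed ones, and only 2 of 30 wide regions on chromosome 17, 1 of 26 on chromosome 18 and none on chromosomes 19 and 20 had a name. Names came with a description at 241 wide and 1871 narrower regions. Counts of gene groups are therefore given as shares of these described regions, and they describe these names only.

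Every group set by words of the description and matched at all had a somewhat larger share at wide than at narrower regions, with no group tested against another. A region matched a group through any of its genes. Of the 265 named wide regions 34 had 2 or more genes named, as did 148 of the 3084 named narrower ones. Wide regions thus had more descriptions to match, and how far this bears on the shares was not tested. Descriptions of transcription factors or zinc finger proteins were found at 24 wide regions (9.96%) and at 7.96% of narrower ones. The leading members by mean rank, the order used for each group, were Glyma.02G152900 with 45.8 and 62.9 and Glyma.10G021400 with 44.3 and 42.8, both B-box zinc finger genes with a CCT domain, and Glyma.02G080200 with 39.3 and 51.5, of the AP2-type integrase-like DNA-binding family. Kinases and phosphatases were found at 25 wide regions (10.4%) and at 8.39% of narrower ones. Glyma.02G235700 (WNK4), Glyma.01G022400 (protein kinase superfamily, 46.7 and 67.1) and Glyma.12G192500 (MAPKKK17) led this group, which also took in genes of sugar metabolism such as hexokinase 1 at Glyma.05G226600, with 9.90 and 19.1.

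Hormone genes were found at 10 wide regions (4.15%) and at 2.14% of narrower ones. The first in order were the CYP707A1 genes, Glyma.01G153300 and Glyma.09G218600, the latter with 40.3 and 47.6. Next came Glyma.13G218200 with 37.3 and 47.6, a gibberellin 2-oxidase gene, whose enzyme inactivates gibberellins. Others were Glyma.13G259500 (gibberellin 2-oxidase 1), Glyma.13G328000 (auxin response factor 4), Glyma.16G109300 (CYP707A1), Glyma.01G056400 and Glyma.02G115000 (the signaling peptide CLE9) and Glyma.16G079600 (cytokinin response factor 4). In this group the mean fold enrichment had a median of 26.4 at wide and 11.9 at narrower regions.

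Transport genes were found at 12 wide regions (4.98%) and at 4.06% of narrower ones. The leading members were a pair of PHO1;H1 genes, which in Arabidopsis export phosphate, with 44.6 and 50.4 at Glyma.02G130200 and 36.2 and 52.1 at Glyma.01G091800, and the oligopeptide transporter gene Glyma.15G059700 with 34.3 and 43.6. Proteins of unknown function were the largest group, at 37 wide regions (15.4%) and 12.2% of narrower ones, led by Glyma.06G298000, Glyma.16G006100 and Glyma.09G173300 with 47.9 and 67.5. The octicosapeptide/Phox/Bem1p family was found at only 2 wide regions (0.83%), the pair above, and at 5 narrower ones (0.267%). No gene with a usable position was described by words for photosynthesis or chlorophyll, so occupancy at such genes cannot be read from these names.

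Genes that the study lists for fatty acid and triacylglycerol synthesis (FAT genes) include known targets of WRI1. The list is broad and also holds sucrose synthase, malate synthase and sterol methyl oxidase genes. Of the 111 shared regions that held a site in a FAT gene, 3 were wide (2.70%), close to the 3.48% of all shared regions. Such sites lay in 0.571% of the wide regions, beside 0.735% of all shared regions. These sites were picked by the study from the same libraries and are no independent set. The narrow FAT regions were not weak. Their median strength was 27.7 over a median width of 827 bp (n = 108), and 64 of the 111 FAT regions had peaks among the strongest 5% of both lists. At that strength 1 of 64 FAT regions (1.56%) and 164 of 836 other regions (19.6%) reached 2000 bp.

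The exception was Glyma.18G284600 (chr18:56524185-56526608, 2424 bp), a G6PD2 gene for glucose-6-phosphate dehydrogenase, which opens the oxidative pentose phosphate pathway. Its strongest peak had fold enrichments of 36.4 in replicate 1 and 61.7 in replicate 2, with summits 16 bp apart, and a separate replicate 1 peak had 4.02. The same gene had a further, narrower region of 912 bp (chr18:56529439-56530350), with 37.1 and 32.3. The other G6PD2 gene with a FAT site, Glyma.02G096800, had a region of 1571 bp with 31.3 and 56.1. Glyma.04G089700 (chr4:7821477-7823916, 2440 bp) encodes phosphoenolpyruvate carboxykinase 1 and was weaker, at 8.22 and 10.2. Here each replicate had 2 peaks, with summits 477 and 2167 bp from the start of the region in replicate 1 and 512 and 2246 bp in replicate 2. At Glyma.08G138100 (chr8:10584457-10586532, 2076 bp), of the phosphoglycerate mutase family, fold enrichments were 9.52 and 8.34. A further FAT gene, the phosphofructokinase 3 gene Glyma.15G020900, was linked to a wide region of 2488 bp with 21.3 and 16.4 through a position outside the table of FAT sites. With it, FAT genes were found at 4 of the 265 named wide regions (1.51%) and at 4.70% of the 3084 named narrower ones. FAT sites were also listed on chromosomes 17 to 20, where few wide regions had a name, so both shares depend on the names available. The widest FAT region under the threshold was that of Glyma.08G084300 (KASI), with 1682 bp.

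Wide occupancy recurred at soybean genes that share an Arabidopsis homolog. Soybean carries many duplicated genes from past duplications of its genome. Wide regions on at least 2 chromosomes were found for 35 Arabidopsis homologs, through 73 of the 241 wide regions with a homolog. Of these homologs 3 had at least 3 wide regions. AT5G39785, a protein of unknown function with a DUF1666 domain, had 4, at Glyma.01G048000 with 48.0 and 60.9, Glyma.02G107200 with 30.8 and 59.4, Glyma.09G238900 with 34.8 and 53.1 and Glyma.07G230300 with 14.7 and 22.5. The first 2 regions measured 4485 and 4486 bp, and the others 2333 and 2426 bp.

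AT5G37600 (GSR1), the cytosolic glutamine synthetase, had 3 wide regions. Besides Glyma.02G244000 they lay at Glyma.14G213300 (3662 bp, 30.9 and 69.7) and Glyma.11G215500 (2209 bp, 30.3 and 39.2). A further pair of GSR1 genes had regions of 1864 bp at Glyma.07G104500 and 1771 bp at Glyma.09G173200, below the threshold. AT4G19230 (CYP707A1) had 3 wide regions, of 3990 bp at Glyma.01G153300, 2677 bp at Glyma.09G218600 and 2699 bp at Glyma.16G109300. The last of these was the weakest, with 23.6 and 25.04, so that the strength of these copies differed more than 2 times while all reached 2000 bp.

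The next homologs each had a pair of wide regions. The octicosapeptide pair of AT2G01190 was the widest. AT1G67920, of unknown function, had 2860 bp at Glyma.07G104300 with 43.9 and 69.0 and 4287 bp at Glyma.09G173300. AT5G66440, also unknown, had 2932 bp at Glyma.11G115300 with 44.4 and 69.4 and 2264 bp at Glyma.12G041200 with 41.5 and 63.9. A further gene of this homolog, Glyma.01G171700, had only 426 bp and a mean fold enrichment of 5.44. The WNK4 genes Glyma.02G235700 and Glyma.14G203700 had 4065 and 4437 bp. Protein kinase genes related to AT5G65530 had 2207 bp at Glyma.01G022400 and 2338 bp at Glyma.09G199900. Glyma.04G243500 had 3052 bp beside the 4703 bp of Glyma.06G119800. AT5G12900, unknown, had 2913 bp at Glyma.11G130700 with 40.2 and 63.1 and 3100 bp at Glyma.12G055100 with 38.2 and 62.8. Its further gene Glyma.13G342300 stayed under the threshold, with 1529 bp and a mean fold enrichment of 16.1.

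**Figure D5:**
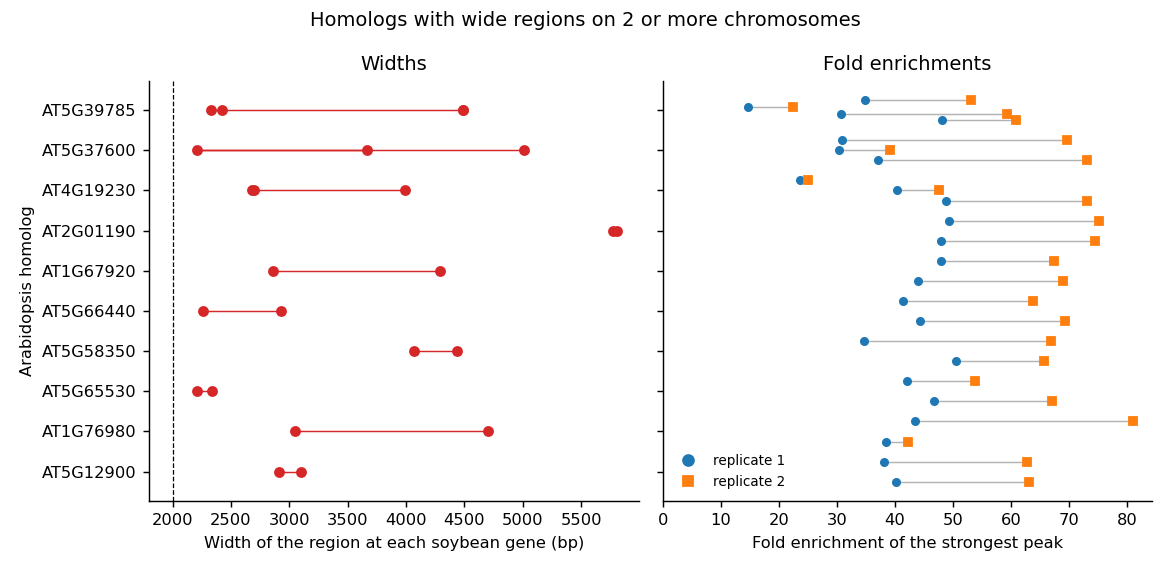
The 10 Arabidopsis homologs with the most wide regions, then the strongest. Left, width of each wide region at the soybean genes of these homologs (bp), with the threshold of 2000 bp dashed. Right, fold enrichment of the strongest peak of these regions in each replicate. Copies with narrower regions are not drawn. The pair of AT2G01190 had nearly equal widths of 5775 and 5804 bp, and copies of AT4G19230 ran from 2677 to 3990 bp.

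The same held when narrower regions were included. Exactly 2 genes on different chromosomes were located at shared regions for 273 homologs. Both genes had a wide region in 22 of these pairs, 1 gene did in 36 and neither did in 215. Thus 44 of 80 genes with a wide region (55.0%) had a partner with a wide region, and 7.73% of the 466 genes with a narrower region did. Across these pairs, each entered in both orders, the Spearman correlation was 0.58 for width and 0.53 for strength, so strength was shared between copies as width was. The copies of a pair can have similar sequences, and the mapping of reads that fit both copies was not stated in the sources at hand, so the values of copies need not be separate measurements.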

How the data were processed

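The analysis used the peak lists of the 2 ChIP libraries, which the authors called against the 2 inputs. The submitters' processing notes name Bowtie 0.12.7 as the aligner and MACS2 as the peak caller. The MACS2 version and the mapping options are not given in the sources. MACS3 is named in the study's methods, and the deposited peaks may differ from those behind its gene counts. The deposited fold enrichment is the authors' ratio of summit reads to the local background, with a pseudocount of 1 added to both. Each peak also has a −log10 p and a −log10 q from the authors. The deposited score and the authors' −log10 q were not used for strength. The peak names carry a q threshold of 0.01. Coordinates are 1-based and taken to be on Wm82.a2.v1, the build of the study's gene IDs, since the lists name no build.

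The summit reads and background of each peak were solved from its fold enrichment and −log10 p, with a tolerance of 0.001, for 100% of peaks. Peaks were merged with Python 3.11.15 (pandas 2.3.3, scipy 1.17.1). Merging and solving were tested on simulated data. Depth is known only as reads at summits. The interval given covers counting error and treats regions as independent. Chromosome lengths were taken as the last peak end. No genome or annotation of this build was used, so no sequence, exon or distance to a gene start is given.

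Gene IDs were linked to regions where a position listed by the study for a bound region or site lay inside the region (4604 positions, 3525 genes). Some of these listings were used in part, and some come from the cotyledon stage. No value was taken from them. Gene groups were assembled from words in the gene descriptions. A region can belong to several groups. The genes to be named were those at the 10 widest, the 10 strongest by mean rank of fold enrichment and the 5 regions with the most peaks, at FAT sites, at up to 10 homologs with several wide regions, at the 3 strongest regions of each group, and at the 3 regions on each side of the threshold. Hexokinase 1, further hormone genes, further copies of named homologs, the closest pair, and the FAT genes under the threshold or outside the table of sites were added after their values were seen. A hormone gene at a wide region is not reported here. The regions, gene groups and measures were chosen with earlier results of these data known. The alternatives tried were stricter lists, other overlaps, widths and strength measures, and each list alone.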

Additional observations from a re-analysis of the deposited data

How the results depend on the processing

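The number of wide regions was 525. It was 1162 at a width of 1500 bp, 108 at 3000 bp and 251 when the widest peak of each replicate had to reach 2000 bp, and with 1 list alone it ranged from 282 (without replicate 1) to 403 (without replicate 2). Regions with 1 peak in each replicate numbered 261 of 525. They numbered 641 at 1500 bp, 51 at 3000 bp, 365 of 479 at a −log10 q of at least 10 and 357 of 484 in the stronger 50% of each list. The median strength was 12.4, and it was 13.7 with 50% reciprocal overlap, 9.96 at 1500 bp, 17.4 at 3000 bp, 18.6 with the widest-peak rule, and 13.1 to 18.4 with 1 list alone. As −log10 p it was 70.4. The ratio of wide to narrower medians was 2.51. It was 1.87 at a −log10 q of at least 10, 1.91 in the stronger 50% of each list, 2.61 with 50% reciprocal overlap, 2.37 with peaks within 100 bp merged, 2.06 at 1500 bp, 3.47 at 3000 bp, 3.73 with the widest-peak rule, 4.48 as −log10 p, and 3.37 to 3.93 with 1 list alone. It stayed above 1 in each of these. With 1 list alone, the narrower set was every other peak of that list, shared or not, and strength came from 1 replicate. Those ratios therefore use another comparison set than 2.51. The share of wide regions in the outer 20% at either chromosome end was 69.7%, and 75.9% at 3000 bp. The cause of these shifts was not tested. The count with 1 peak in each replicate was not run without a replicate, since it needs both lists. No paired analysis was possible because no groups were compared by a test. The fewest reads at the strongest summit of a wide region were 20, in replicate 2.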
